A study of Mus musculus with 10 samples.

Results

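The regions described here are places in the genome of mouse embryonic stem (ES) cells where an anti-TET2 antibody gave a ChIP-seq peak whether or not the cells had Tet2, and where an anti-FLAG resin gave none. Peaks of the 8 deposited lists on chromosomes 1 to 19, X and Y that had 1 bp or more in common were joined into one region. Of the 79350 merged regions, 471 (0.594%) had a peak in both Tet2 knockout and both wild-type lists and in none of the 4 FLAG resin lists. The regions were chosen by the presence or absence of the authors' peaks in these lists, so neither their number nor their enrichment is a finding. The number depended on single lists, since it was 880 without knockout replicate 1 and 772 without FLAG-TET2 replicate 1.

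TET2 is a dioxygenase that oxidises 5-methylcytosine in DNA, the first step of a route back to unmethylated cytosine. It has no CXXC domain of its own to hold it on CpG-rich DNA, unlike TET1 and TET3, and its placement on chromatin is therefore studied by ChIP. A polyclonal antibody is a mixture that can also bring down other proteins or free chromatin, so cells with the target gene knocked out are used as a control for it. A resin against a FLAG tag is a different reagent with a background of its own.

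The knockout cells were Tet2-/- and the wild-type cells Tet2 fl/fl, and neither carried a tag. Both went through precipitation with a rabbit polyclonal antibody raised against the N-terminal part of TET2. The FLAG-TET2 cells were Tet2 fl/fl with 2 FLAG copies on TET2 expressed from its own locus, and the parental cells were Tet2 fl/fl without a tag. Both went through FLAG M2 affinity gel. All cells grew in serum with LIF, the GSK-3 inhibitor CHIR99021 and the MEK1 inhibitor PD0325901, and were fixed with DSG, a protein to protein crosslinker, before formaldehyde. Each group had 2 libraries with 1 peak list each, and an input and an IgG library were not analysed here. The labels do not say whether replicates came from separate cultures or clones, how the knockout was checked, or what part of Tet2 it lacks. Peak lists measure no expression, so the labelled cell type was not checked against markers.

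The sequence under these peaks could be read where the summit lay in a promoter window of RefSeq (GRCm38.p6, which has the coordinates of mm10), from 250 bases before to 50 after a start site. The leading 10 regions whose summit had at least 50 window bases on each side are printed here, to show the letters at the summit. Each stretch holds 101 bases on the strand of the named gene, and its middle base is the median summit of the 4 anti-TET2 peaks. Capitals mark CACGTG, the palindromic E-box bound by basic helix-loop-helix proteins such as MYC, MAX and MGA, and CACGCG, a variant of it with 1 changed base. On the other strand the variant reads CGCGTG.
Bhmg1 (chr7:19118386-19118486, minus strand): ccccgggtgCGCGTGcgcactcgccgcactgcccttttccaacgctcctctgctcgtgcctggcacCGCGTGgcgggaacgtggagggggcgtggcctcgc
Spata22 (chr11:73329686-73329786, plus strand): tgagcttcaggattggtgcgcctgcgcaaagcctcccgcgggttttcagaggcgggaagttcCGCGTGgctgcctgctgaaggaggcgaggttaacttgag
Eif5a2 (chr3:28781071-28781171, plus strand): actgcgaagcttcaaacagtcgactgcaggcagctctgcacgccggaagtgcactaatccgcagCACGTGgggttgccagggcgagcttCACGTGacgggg
Syce1 (chr7:140787852-140787952, minus strand): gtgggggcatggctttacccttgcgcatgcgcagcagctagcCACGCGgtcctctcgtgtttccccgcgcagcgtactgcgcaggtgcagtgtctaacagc
Dmrtc2 (chr7:24869828-24869928, plus strand): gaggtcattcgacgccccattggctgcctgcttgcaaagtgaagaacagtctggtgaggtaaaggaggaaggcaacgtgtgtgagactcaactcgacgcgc
Tdrd1 (chr19:56826144-56826244, plus strand): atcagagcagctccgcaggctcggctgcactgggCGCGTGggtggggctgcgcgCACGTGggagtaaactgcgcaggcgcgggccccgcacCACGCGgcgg
Tcam1 (chr11:106276630-106276730, plus strand): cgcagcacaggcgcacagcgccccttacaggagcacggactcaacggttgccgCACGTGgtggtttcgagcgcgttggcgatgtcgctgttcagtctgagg
Hsf5 (chr11:87617024-87617124, plus strand): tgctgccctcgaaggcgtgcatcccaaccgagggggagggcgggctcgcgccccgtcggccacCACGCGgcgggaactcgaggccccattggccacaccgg
Rasef (chr4:73790746-73790846, minus strand): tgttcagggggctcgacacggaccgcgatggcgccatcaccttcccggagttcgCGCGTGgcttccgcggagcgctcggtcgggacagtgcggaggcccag
1700001L05Rik (chr15:83367438-83367538, minus strand): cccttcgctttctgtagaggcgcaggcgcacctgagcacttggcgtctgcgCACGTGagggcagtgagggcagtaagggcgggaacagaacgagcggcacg

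Of these 10 stretches, 9 held at least 1 of the motifs, CACGTG in 4 and CACGCG in 6. The variant was added to the search after these sequences were seen, so the count of 9 was partly fixed by that choice. No share over other stretches of this length was computed. The shares given with the motif counts further on are for longer promoter windows, of 300 bases. Either motif was in 50.0% of 114 such windows touched by background regions and in 14.5% of all. The share was 48.5% in windows touched by regions in all 4 anti-TET2 lists that also had a FLAG resin peak. The stretch at Dmrtc2, in a region whose nearest gene was Lypd4, held neither. Several of the genes named by these windows act in germ cells, which is a reading of names with no share beside it. Of the 14 genes on the germline list described further on, 1 (Tdrd1) was nearest gene of a background region. Regions in all 4 anti-TET2 lists that also had a FLAG resin peak were near 9 of those 14. Bhmg1 (also known as Meiosin) is a partner of STRA8 at meiotic entry, Spata22 acts in meiotic recombination, Syce1 is a part of the synaptonemal complex, Tdrd1 acts in piRNA-guided transposon silencing, and Hsf5 is a heat shock factor family member of the testis. The summit at Eif5a2, a gene for a translation factor, lay 156 bases before its start site, and that at Spata22 lay 5 bases before a start site inside the gene span.

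The region with the highest rank over the 4 anti-TET2 lists lay inside Rfxank (chromosome 8, 70135761 to 70136138, mm10), a gene for a subunit of the RFX complex of MHC class II promoters. The authors' fold enrichment at the summit was 40.3 and 52.7 in knockout replicates 1 and 2, against 44.2 and 33.1 in wild-type replicates 1 and 2. It was the strongest peak by −log10 q in both knockout lists and in wild-type replicate 2, and the second strongest in wild-type replicate 1. The folds of the groups overlapped. The nearest FLAG resin peak was 2761 bp away.

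The next region lay 3.66 kb from Pgpep1, which encodes a pyroglutamyl peptidase (chromosome 8, 70642438 to 70642780). Its folds were 25.7 and 38.9 in knockout replicates, against 33.1 and 26.7 in wild-type replicates, and it ranked between 2 and 5 in every anti-TET2 list. The Bhmg1 region (chromosome 7, 19118001 to 19118785) covered an end of the gene, with folds of 21.9 and 23.4 in knockout and 26.7 and 16.3 in wild-type replicates. The Padi4 region (chromosome 4, 140773434 to 140773896), at a gene for a peptidylarginine deiminase, had folds of 28.2 and 51.2 in knockout and 26.1 and 19.2 in wild-type replicates. Both knockout values were the higher ones at Padi4, while at Bhmg1 and Pgpep1 the groups overlapped. The Spata22 region (chromosome 11, 73329403 to 73330035) had folds of 19.4 and 33.4 in knockout and 22.7 and 16.3 in wild-type replicates.

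Of the 20 leading regions, 9 lay by a gene end, meaning at most 1 kb from the start or end of a protein-coding gene span. Besides Bhmg1 and Padi4 these were at Mei1, needed for meiotic double-strand breaks, Zcwpw1, a reader of the histone marks that PRDM9 sets, Henmt1, which methylates the ends of piRNAs, Gstp3, a glutathione transferase, Eif5a2, Prss27, a serine protease, and Spop, an adaptor of a CUL3 ubiquitin ligase. The Mei1 region (chromosome 15, 82069857 to 82070320) had folds of 21.9 and 31.1 in knockout and 22.9 and 14.6 in wild-type replicates. At Henmt1 (chromosome 3, 108939842 to 108940483) they were 23.0 and 25.6 in knockout and 24.4 and 13.3 in wild type. In both the lowest value was that of wild-type replicate 2, and the groups overlapped.

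Other leading regions lay inside Fam174a, Cox16, an assembly factor of cytochrome c oxidase, Fam155a, Scnn1a, a subunit of the epithelial sodium channel, and Oas2, an interferon-induced oligoadenylate synthetase. At Cox16 (chromosome 12, 81461886 to 81462295) the folds were 29.8 and 44.6 in knockout and 18.9 and 17.9 in wild-type replicates. At Oas2 (chromosome 5, 120741406 to 120741758) they were 26.1 and 41.3 in knockout and 19.3 and 13.4 in wild type. In both regions each knockout value exceeded each wild-type value. The remaining ones lay 35.8 kb from Lipf, 17.5 kb from Teddm3 and 18.7 kb from Arhgef10l.

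Over all 471 regions the authors' folds ran from 3.66 to 40.3 in knockout replicate 1 (median 7.77) and from 4.36 to 52.7 in knockout replicate 2 (median 12.8). They ran from 3.84 to 44.2 in wild-type replicate 1 (median 9.16) and from 2.86 to 33.1 in wild-type replicate 2 (median 6.95). Knockout replicate 2 gave the highest of the 4 folds in 392 regions and wild-type replicate 2 the lowest in 310. Each knockout fold exceeded each wild-type fold in 155 regions, and the reverse held in 5. These counts were not made over other regions, so it is not known whether they are particular to the 471. In regions of all 4 anti-TET2 lists that also had a FLAG resin peak, the median folds were 7.40 and 11.4 in knockout replicates 1 and 2. They were 11.1 and 7.68 there in wild-type replicates 1 and 2. These folds were computed list by list at an unknown depth, so they are set side by side as a description and were not tested between groups.

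**Figure D1:**
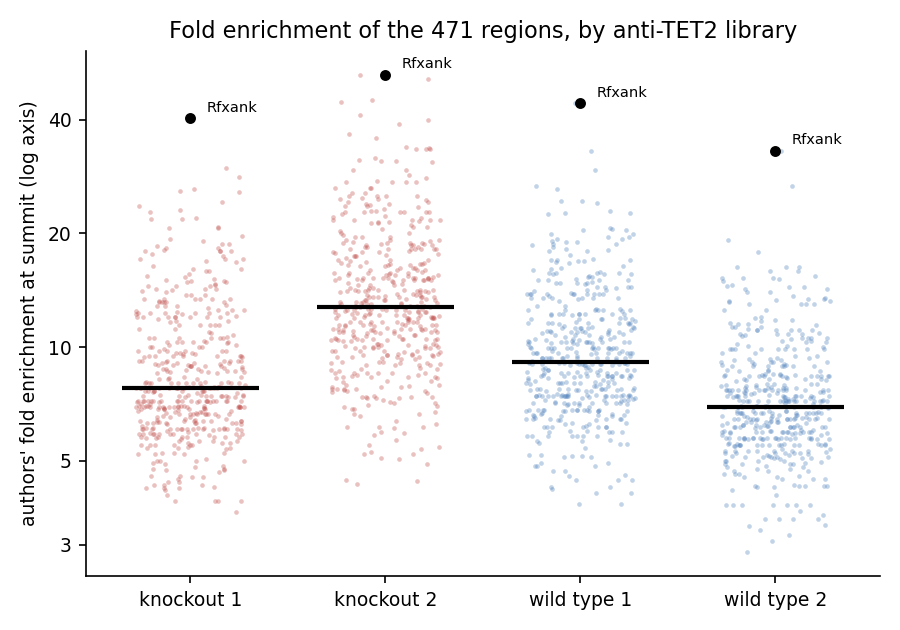
Authors' fold enrichment of the 471 regions (log axis) in knockout replicates 1 and 2 and wild-type replicates 1 and 2, with 1 point per region, the median as a black bar and the Rfxank region as a black point. The medians were 7.77, 12.8, 9.16 and 6.95 from left to right, and the Rfxank region led in each library.

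The regions filled a larger part of the short lists. They held 21.6% of the 2259 peaks of knockout replicate 1 and 4.10% of the 11696 of knockout replicate 2, against 1.26% of the 38536 of wild-type replicate 1 and 2.62% of the 18820 of wild-type replicate 2. Among the 100 leading peaks, 40 and 42 lay in these regions in knockout replicates 1 and 2, and 4 in each wild-type list. Regions in all 4 anti-TET2 lists that also had a FLAG resin peak held more of them. They held 59 and 58 in knockout replicates 1 and 2, and 17 and 24 in wild-type replicates 1 and 2. Among the 10 leading peaks the background regions held 4 and 6 in knockout lists and 3 in each wild-type list. The lists differ in length and the rule used presence in them, so these counts are a description and were not tested. The peaks of the 4 libraries lay close together, with a median distance of 47 bp between the outermost summits of a region. That distance was at most 100 bp in 381 regions and reached 804 bp in the widest case.

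Since the same 471 regions were ranked in every library, their order could be set side by side. Spearman's rho of −log10 q across regions was 0.787 between the knockout lists and 0.708 between the wild-type lists, and between 0.608 and 0.654 across genotypes. Regions are not independent samples and these values are a description. In 112 regions both knockout ranks were higher than both wild-type ranks, and in 112 the reverse held. Such counts were not made over other regions, so it is not known whether they are high or low. No region named below was tested for a difference between the genotypes. The largest such difference toward knockout was at Pmepa1 (mean rank 115 in knockout and 437 in wild type), followed by Kat6a, a histone acetyltransferase, Bcl10, Sox10, a neural crest factor, and Fhad1. At Pmepa1 (chromosome 2, 173255409 to 173255772) the folds were 12.3 and 17.5 in knockout and 6.78 and 4.76 in wild-type replicates. At Kat6a (chromosome 8, 22903137 to 22903411) they were 8.04 and 10.1 in knockout and 4.10 and 3.81 in wild type. Toward wild type the leading ones were at Erfe, the gene of the hormone erythroferrone, Rbpjl, Efcab8, Zcchc14 and Myrip. At Erfe (chromosome 1, 91366274 to 91367001) the folds were 5.23 and 8.56 in knockout and 12.9 and 7.19 in wild type, so that the folds overlapped although the ranks did not.

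**Figure D2:**
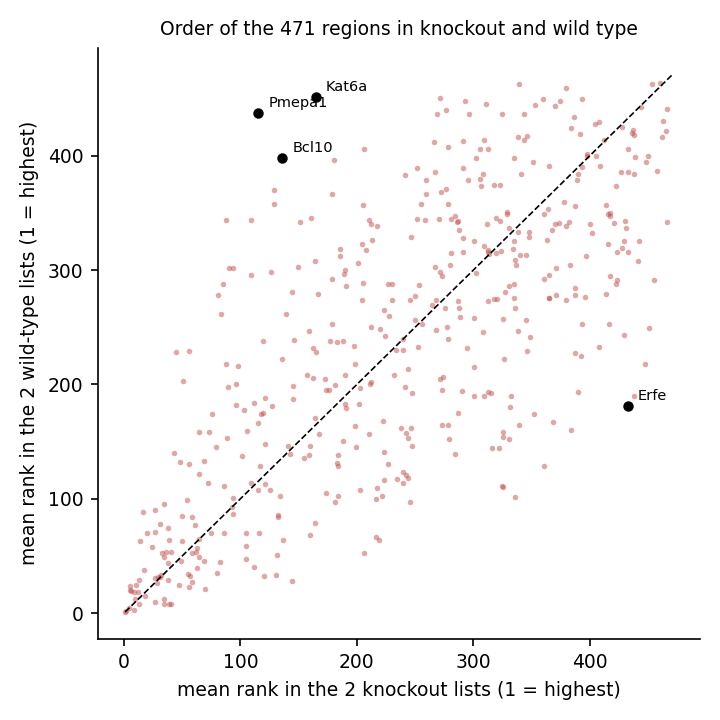
Mean rank of each of the 471 regions by −log10 q among these regions (1 is the highest) in the 2 knockout lists (x axis) and the 2 wild-type lists (y axis), with the line of equal rank dashed. Pmepa1, Kat6a and Bcl10 lie above the line and Erfe below it, while the leading regions lie together at the lower left.

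At the edge of the rule, the regions with the lowest −log10 q in any list lay at Sfrp4, a secreted WNT inhibitor, in Gnas, 164 kb from Lef1, at Lrrc4b and in Kiss1r. The Sfrp4 region had folds of 6.56 and 8.26 in knockout and 5.98 and 3.06 in wild-type replicates, with a −log10 q of 2.03 in wild-type replicate 2. Just outside, a FLAG resin peak with a −log10 q of 2.25 to 2.57 in FLAG-TET2 replicate 1 alone kept out regions that included those near Lasp1, in Macrod2, 77.0 kb from Max, and at Smc1b, a meiotic cohesin subunit. The Smc1b region had folds of 19.2 and 31.6 in knockout and 24.0 and 19.4 in wild-type replicates, as high as those of leading regions. Another 640 regions had peaks in 3 of the anti-TET2 lists and in no FLAG resin list, and 409 of them lacked one in knockout replicate 1. The leading ones lay by Hoga1 and in Cyp26b1, without a peak in knockout replicate 1, and 613 kb from Gm4868, 224 kb from A430005L14Rik and 20.9 kb from Ddr1, without one in wild-type replicate 2. Of the 471 regions, 63 had a FLAG resin peak within 1 kb, outside the region itself.

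The position relative to genes was not used by the rule. At a gene end, as defined above, lay 177 of the 471 regions (37.6%, exact 95% interval 33.2 to 42.1%), against 22.3% of all merged regions. They included the Bhmg1, Tdrd1, Hsf5 and Syce1 regions. A further 158 lay deeper inside a gene, among them those of Rfxank and Oas2, 91 lay within 50 kb of a gene and 45 farther away. In all, 315 (66.9%) overlapped a gene span. Among the 100 leading regions 29 were at a gene end, and in the next 4 tiers the shares were 37%, 38%, 45% and 39.4%. The median folds of regions at gene ends were 7.42 and 11.9 in knockout and 9.02 and 6.77 in wild-type replicates, and those of regions deeper inside genes 7.77 and 12.9 in knockout and 9.28 and 6.95 in wild type.

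Regions that shared the 4 anti-TET2 lists but also had a FLAG resin peak lay at gene ends more often. There were 1259 of them, and 842 (66.9%) were at a gene end, so the share of the background regions was 29.3 percentage points lower. Their odds ratio was 0.298 (95% interval 0.238 to 0.374), with an adjusted p = 9.7e-28 over 3 comparisons (Fisher's exact test, two-sided). The share was higher with each further FLAG resin list that had a peak, an order that was not tested. It was 49.7% of 316 regions with 1 such list, 62.1% of 356 with 2, 77.8% of 334 with 3 and 80.6% of 253 with 4. The median width of the merged region moved with it, at 410 bp with no list, 579 bp with 1 and 1048 bp with 4, and its part in the result was not tested. With the position of the leading summit in place of the whole region, a choice made after seeing the data, the odds ratio was 0.318. With each list shortened to its 2259 leading peaks, 63.0% of 273 regions that then met the rule and 28.6% of 7 comparison regions were at a gene end. The odds ratio turned to 4.23 (95% interval 0.678 to 45.2, adjusted p = 0.109). The FLAG resin lists held 10122 to 63578 peaks before shortening. The 273 can therefore include regions with a FLAG resin peak in the full lists, and how many did was not counted.

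Against the background of the other reagent the difference ran the other way. Of 3985 regions with a peak in all 4 FLAG resin lists and in no anti-TET2 list, 460 (11.5%) were at a gene end (odds ratio 4.61, 95% interval 3.71 to 5.72, adjusted p = 5.5e-41 by the same exact test). Without wild-type replicate 1, which also admits more regions to the FLAG resin class, the odds ratio was 2.21. Against all 78879 other merged regions, of which 22.3% were at a gene end, it was 2.10 (95% interval 1.73 to 2.54, adjusted p = 7.7e-14 by the same exact test). Regions are the units of these tests, so the p-values describe these lists and measure no spread between samples.

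**Figure D3:**
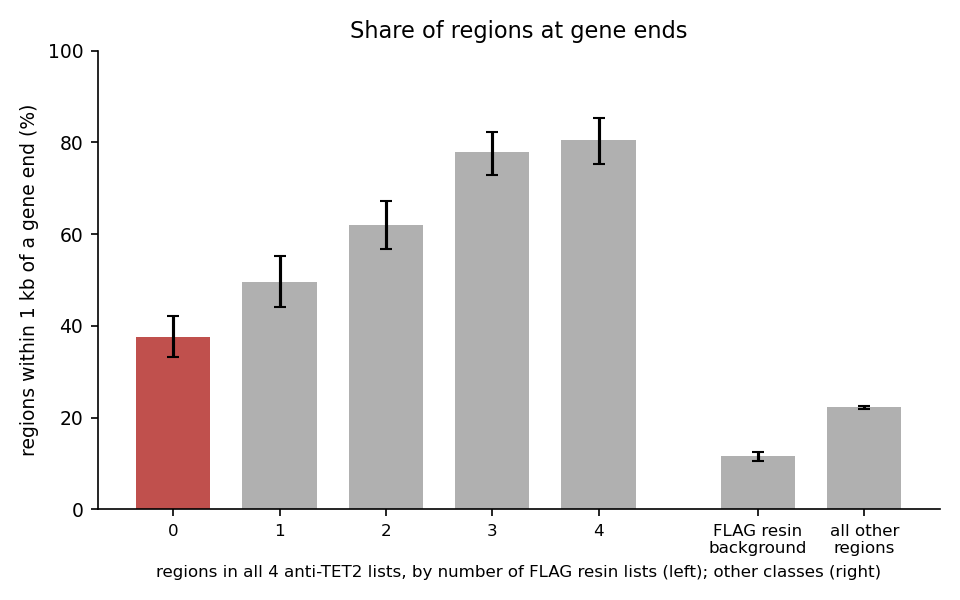
Share of regions at most 1 kb from a gene end, with exact 95% binomial intervals, for regions in all 4 anti-TET2 lists by the number of FLAG resin lists with a peak (0 to 4; 0 is the 471 background regions, in red), for the FLAG resin background regions and for all other merged regions. The share was 37.6% with no FLAG resin list and 80.6% with 4, against 11.5% and 22.3% in the other classes.

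Promoter windows under these regions were rich in CpG. At least 1 window was touched by 109 of the 461 regions on chromosomes that the promoter table covers, and the counts that follow are over windows that do not overlap each other. The 114 windows touched had a median GC content of 64.2%, against 64.3% in 776 windows touched by the other regions in all 4 anti-TET2 lists, 56.3% in 221 windows of FLAG resin background and 52.0% in all 29164 windows. The ratio of observed to expected CpG had a median of 0.761 in the 114 windows, 0.853 in the windows of the other regions in all 4 lists, 0.636 in those of the FLAG resin background and 0.357 in all windows. It was over 0.6 in 78.1% of the 114, against 32.9% of all windows.

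The E-box CACGTG was found in 31 of the 114 windows (27.2%), against 22.0% of the windows of the other regions in all 4 anti-TET2 lists, 3.17% of those of the FLAG resin background and 6.91% of all windows. Matches on both strands were counted, and the motif was on a list of 12. The variant CACGCG, added after the sequences were seen, was in 31.6% of the 114 windows, 34.1% of those of the other regions in all 4 lists, 9.05% of those of the FLAG resin background and 8.59% of all. Either motif was in 50.0% of the 114 windows, 48.5% of those of the other regions in all 4 lists, 11.8% of those of the FLAG resin background and 14.5% of all. Among windows with a CpG ratio over 0.6, CACGTG was in 31.5% of the 89 windows of the background regions, 22.6% of the 685 of the other regions in all 4 lists, 2.44% of the 123 of the FLAG resin background and 11.2% of all 9603. In those windows the variant was in 38.2% of the background regions' windows, 38.2% of those of the other regions in all 4 lists and 22.5% of all. Either motif was in 59.6% of the background regions' windows, 52.3% of those of the other regions in all 4 lists and 31.0% of all. GGGCGG, the GC box of SP and KLF factors, was there in 70.8% of the background regions' windows and in 72.2% of all, and CCAAT, the NF-Y box, was in 46.1% of the background regions' windows and in 35.4% of all.

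The other motifs on the list were less common in the 114 windows. The ETS-type CCGGAAG was in 8.77% of them, against 17.8% of those of the other regions in all 4 lists and 7.92% of all. Among windows with a CpG ratio over 0.6 it was in 7.87% of the background regions' windows, against 17.3% of all. Over windows of any composition TATAAA was in 7.89% against 14.2% and the CRE TGACGTCA in 1.75% against 1.64%. Both orders turned where the CpG ratio was over 0.6, with TATAAA in 8.99% of the background regions' windows against 6.13% of all and the CRE in 2.25% against 3.48%. Few windows stand behind these shares. TATAAA was in 9 of 114 and in 8 of 89 windows of the background regions, and the CRE in 2 of 114 and 2 of 89. The octamer ATTTGCAT was in none of the 114 and in 1.77% of all. The NRF1 palindrome was in 2.63% (3 windows) against 0.826%, and in 2.25% (2 windows) against 2.22% where the CpG ratio was over 0.6. CA, GA, GGAA and telomere repeats were each in at most 0.877% of the 114. Motif matches are a description of these letters, and no difference between the classes was tested.

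**Figure D4:**
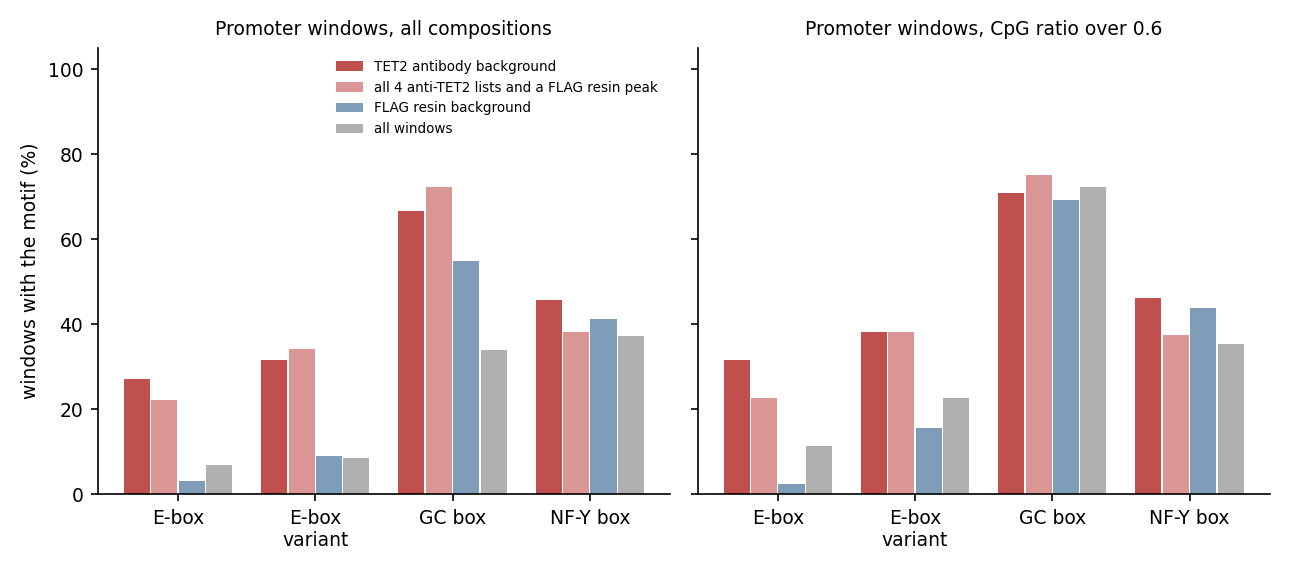
Share of non-overlapping promoter windows of 300 bases that hold the E-box, its variant, the GC box or the NF-Y box, by region class, in windows of any composition (left) and in windows with an observed to expected CpG ratio over 0.6 (right). In CpG-rich windows the E-box stood at 31.5% under the background regions and at 11.2% in all windows, while the GC box stood at 70.8% and 72.2%.

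Where a window held both the summit and a motif, the distance between them was measured. The median summit of 65 regions lay in a window. Of these 65, 25 had CACGTG in the window, at a median distance of 22.5 bp from the summit. The variant CACGCG was in 29, at a median of 15.5 bp. The distance for a motif placed anywhere in the window was not computed. Within 25 bp of the summit lay CACGTG in 13 of the 25 windows that held it (52%) and the variant in 22 of 29 (75.9%). The variant was added after the printed stretches were seen, and the summits of those stretches are among the 65. Its closeness to these summits was therefore partly fixed by that choice. In the Tdrd1 and Tcam1 stretches printed above CACGTG begins just after the middle base, and in the Spata22, Hsf5 and Rasef stretches the variant lies within 25 bases after it. GGGCGG was found in 43 of the 65 windows at a median of 42.5 bp, and CCAAT in 31 at 81 bp, with 2 within 25 bp. In the other regions in all 4 anti-TET2 lists the medians over 386 windows were 35.5 bp for CACGTG, 26.5 bp for CACGCG, 47.5 bp for GGGCGG and 72.5 bp for CCAAT. The median summit lay 50 bp before the start site in the background regions and 58.5 bp before it in these.

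**Figure D5:**
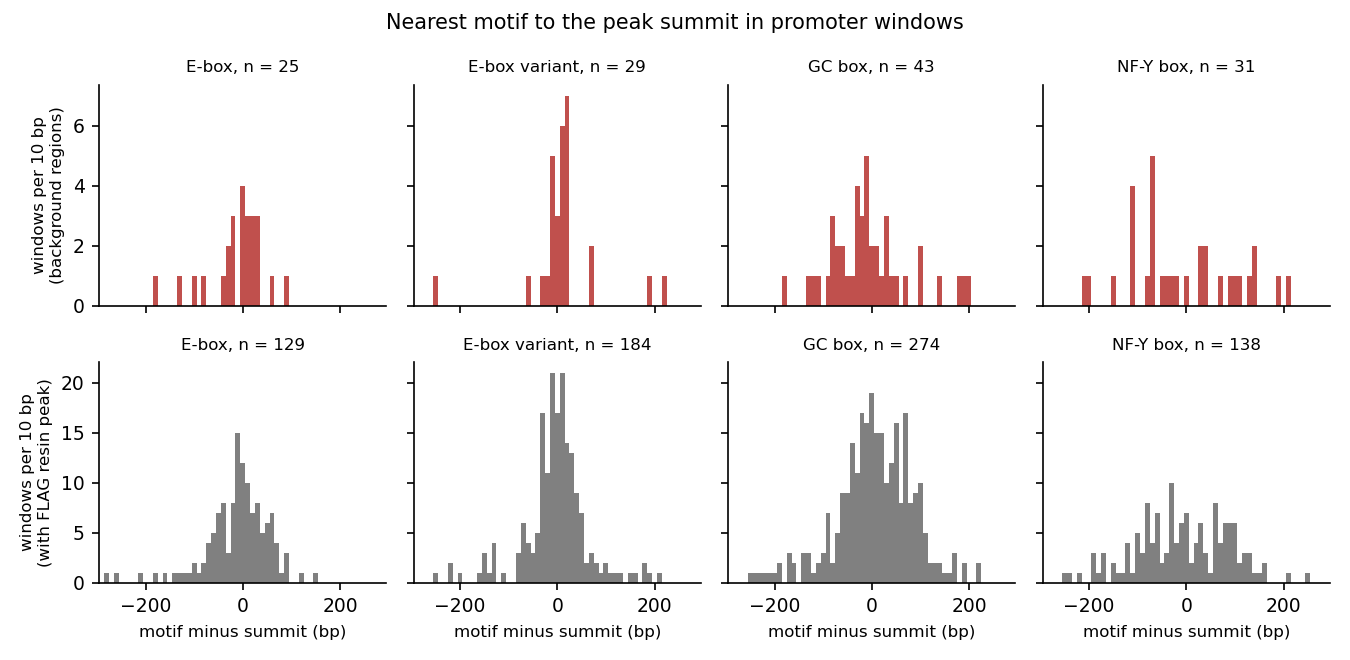
Distance from the peak summit to the nearest match of each motif on the strand of the gene, in bins of 10 bp, for promoter windows that hold the median summit of a background region (top row, 65 windows) or of another region in all 4 anti-TET2 lists (bottom row, 386 windows). The median distance was 22.5 bp for the E-box, 15.5 bp for its variant and 81 bp for the NF-Y box in the top row. In the bottom row it was 35.5, 26.5 and 72.5 bp. The variant was chosen after some of the top-row summits were seen, and the distance for a motif placed anywhere in the window was not computed.

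The nearest protein-coding gene within 50 kb was one of 416 genes, 1.90% of all 21887, for 426 of the regions. No gene had more than 2 of the regions, and 10 had exactly 2. Those were Cpeb1, a regulator of stored mRNAs in oocytes, Hsf5, Gnas, an imprinted gene for a G protein subunit, Glt1d1, Grm5, a glutamate receptor, Jph2, Myo3a, Pom121l2, Scn8a, a sodium channel, and Tenm3. The stronger Cpeb1 region (chromosome 7, 81453641 to 81454290) had folds of 13.7 and 20.3 in knockout and 16 and 11.9 in wild type. The stronger Hsf5 region (chromosome 11, 87616869 to 87617331) had folds of 15.0 and 18.2 in knockout and 20.7 and 9.88 in wild type. No background region lay over the span of Tet1, Tet2 or Tet3.

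Gene lists of ES cell biology and of housekeeping functions were near these regions about as often as any gene. Over 17 lists, 5 of 266 matched genes (1.88%) were nearest gene of a background region, against 1.90% of all genes. They included Tdrd1 in the germline list (1 of 14), Mga, a MAX partner with its own T-box, in the MYC and MAX list (1 of 12), Dlk1 in the imprinted list (1 of 14) and Mbd2, a reader of methylated CpG, in the DNA methylation list (1 of 16). The Mga region (chromosome 2, 119952486 to 119952903) lay inside the gene with folds of 17.7 and 23.2 in knockout and 18.9 and 9.87 in wild type. None of the core pluripotency, Polycomb, ribosomal protein, translation factor, splicing, histone, chaperone and stress, proteasome and ubiquitin, cell cycle, p53 and DNA damage, mitochondrial or feeder fibroblast genes was. Near the other regions in all 4 anti-TET2 lists were 9 of the 14 germline genes (64.3%), against 5.35% of all genes, and 1 of the 16 core pluripotency genes. Near the FLAG resin background regions were 1 of the 14 germline genes and 5 of the 16 core pluripotency genes, against 11.7% of all genes. These counts are a description and were not tested.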

How the data were processed

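ChIP-seq for TET2 was done on mouse ES cells, in 2 libraries for each of 4 groups. Per the submitters' processing notes, MACS2, Bowtie2, Trimmomatic, DESeq2 and DiffBind were used on mm10, without stated roles or versions. In the deposited lists the authors give for each peak a score, a fold enrichment (a linear ratio), −log10 p and −log10 q values and a summit. The deposited score is 10 times −log10 q cut to a whole number. Peak names hold q10, rmChrM, rmDUP and IgG. Peaks were called per library, and read depth is unknown, so a missing peak is not an absent signal. The authors' folds were used only to describe peaks.

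Peaks on 21 chromosomes were merged (at least 1 bp shared), which left out 2 to 34 peaks of a list. A region took the values of its leading peak in each list, and percentiles of −log10 q rank peaks within a list. The members, gene lists and motifs were chosen with earlier results of these data known. Regions were named by rule: the 20 with the highest mean percentile over the anti-TET2 lists, those nearest the edge of the rule, those with the largest rank differences, genes nearest to 2 regions, and list genes (266 of 268 symbols matched). Some named regions and genes are not reported here. Gene spans and promoter windows came from RefSeq (GRCm38.p6). The promoter table lists start sites for 17492 of 21887 protein-coding genes and holds no window on chromosome 18. Differences in shares were tested by Fisher's exact test, two-sided, Benjamini-Hochberg adjusted over 3 comparators, with conditional odds ratios (scipy 1.17.1), at an adjusted p of 0.05. Merging, distances and intervals were tested on simulated data.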

Additional observations from a re-analysis of the deposited data

How the results depend on the processing

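The number of background regions was 471 and lay between 471 and 880 when single lists were left out. Leaving out a list drops a condition of the rule, so the number could hardly fall. It was 880 without knockout replicate 1, 772 without FLAG-TET2 replicate 1, and 273 with each list shortened to 2259 leading peaks. Under the other alternatives run it stayed within 1.5 times of 471, from 408, without the regions that have a FLAG resin peak within 1 kb (a choice made after seeing the data), to 696, without wild-type replicate 2.

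The odds ratio at gene ends against the other regions in all 4 anti-TET2 lists was between 0.229 and 0.422 when single lists were left out. Under the remaining alternatives, apart from shortened lists, it was between 0.244 and 0.448. With shortened lists it reversed to 4.23 (adjusted p = 0.109, Fisher's exact test), where 7 comparison regions were left. The regions that meet the rule in shortened lists can include some with a FLAG resin peak in the full lists. That limit applies to all shortened-list values given here. Against the FLAG resin background it was between 2.21 and 5.08 when single lists were left out, with 7.64 for shortened lists. Against all other regions the same ranges were 1.56 to 2.14, and 4.65. Those last 2 comparisons kept their direction and passed the adjusted test under all 17 alternatives each. No paired analysis was possible because the results come from presence in lists and from no fit across samples. Depth limits every absence of a peak here, and the shortest list, knockout replicate 1, sets which regions can enter.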

Other observations

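A list of meiosis and germ cell genes was set against the genes at these regions. The list used here holds 91 genes of the synaptonemal complex, meiotic recombination, meiotic cohesin and telomere attachment, meiotic entry, the piRNA pathway and germ cell transcription, with 14 other testis or oocyte genes. It was written after the genes at these regions were seen, so its counts were partly fixed by that choice and are a description with no test. The shorter germline list of the report, with 14 genes, had 1 (Tdrd1) nearest to a background region. Of the 91, 25 (27.5%) were nearest gene within 50 kb of a background region, against 1.90% of all protein-coding genes, and 23 (25.3%, against 5.35%) of another region in all 4 anti-TET2 lists. Near FLAG resin background regions were 10 (11%, against 11.7%). With a region within 1 kb of a gene end there were 19 (20.9%, against 0.873%) for the background regions, 23 (25.3%, against 4.28%) for the other regions in all 4 anti-TET2 lists and 0 (against 2.30%) for the FLAG resin background. By nearest gene within 50 kb, the recombination genes gave 8 of 22, Spo11, Mei1, Iho1, Ankrd31, Zcwpw1, Spata22, Rnf212 and Rnf212b. The other regions in all 4 anti-TET2 lists gave 2 of these 22. On that same measure the piRNA genes gave 3 of 20, Tdrd1, Gpat2 and Henmt1, against 8 for those other regions. The other testis or oocyte genes gave 5 of 14 on it, Adad1, Adad2, Cpeb1, Lypd4 and Tcam1, against 4. Germ cell transcription genes gave 4 of 11 against 1, and synaptonemal complex genes 2 of 10 against 4. Meiotic entry genes gave 2 of 7 against 3, and cohesin and telomere attachment genes 1 of 7 against 1.

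The folds of background regions within 1 kb of an end of a gene on this list varied widely. At Taf7l, a testis paralog of a TFIID subunit, they were 18.5 and 27.5 in knockout and 15.1 and 10.4 in wild-type replicates. At Iho1, needed for meiotic double-strand breaks, they were 6.90 and 15.1 in knockout and 14.3 and 7.25 in wild type. At Sycp2, of the synaptonemal complex, they were 7.54 and 11.9 in knockout and 8.07 and 7.31 in wild type. At Adad2, a testis gene at place 452 of the 471, they were 3.66 and 9.60 in knockout and 4.44 and 4.92 in wild type.

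The regions were spread over 20 of the 21 chromosomes, with 50 on chromosome 2, 44 on chromosome 7, 7 on X and none on Y. Of all 79350 merged regions, 5863 lay on chromosome 2, 5004 on chromosome 7, 1303 on X and 29 on Y. Chromosome X held 1.49% of the 471, against 1.64% of all other merged regions. None of the 1259 other regions in all 4 anti-TET2 lists lay on X. Of the 471, 119 overlapped no annotated gene of any kind, 44 overlapped a lncRNA gene and 4 a tRNA gene. These kinds were not counted over all merged regions, so it is not known whether the numbers are high or low.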
